A study of Mus musculus with 70 samples.

Results

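Gene expression in the nucleus accumbens (NAc) was compared between HAB and LAB mice on 10 hybridizations of the MPIP24k array, chosen by the region given in their titles from 70 hybridizations of 7 brain regions. HAB and LAB are lines of CD-1 (ICR) mice bred for high and for low anxiety-related behavior on the elevated plus-maze, and the animals were males of 10 weeks under basal conditions. RNA from punches of 1 mm, taken on both sides of 200 µm slices from 1.3 to 0.9 mm anterior to Bregma, came from 6 mice per line. The tissue was the core of the NAc with a smaller part of the shell around the anterior commissure. The RNA was amplified and then pooled, so each line is 1 pool, and each array held both pools in different dyes. On 5 arrays HAB RNA was labelled with Cy3 and on 5 with Cy5. All values are log2 of HAB over LAB, with the orientations weighted equally, so a positive value is higher in HAB. The 10 arrays repeat the measurement of the same pair of pools, and every SD and p-value below covers the spread between arrays and not the spread between mice. A lower value in such tissue RNA can come from fewer cells of a type or from less RNA per cell, which cannot be told apart here.

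The NAc is the ventral part of the striatum. Most of its neurons are medium spiny neurons, which release GABA and receive dopamine from the midbrain and glutamate from the cortex, the amygdala and the hippocampus. One class of them carries dynorphin and substance P, the products of Pdyn and Tac1, and the other carries enkephalin, the product of Penk. The region is known for its part in reward, motivation and aversion.

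The array carries 24192 spots in 48 print-tip blocks. After removal of 1368 control or empty spots, 22824 probes were compared, of which 16975 lay above the empty spots in the NAc. The median intensity of the probes per array was 614.5 to 897.5 in Cy3 and 170.9 to 235.4 in Cy5 where HAB was in Cy3, and 309.3 to 529.7 in Cy3 and 260.4 to 540.4 in Cy5 where HAB was in Cy5. No more than 7 spots were saturated in any channel. Agreement between arrays was low and depended on the dye orientation. Across all probes, Pearson's r of log2 HAB/LAB between arrays of opposite orientation was -0.03 to 0.03, and over the 5706 brightest probes it was 0.10 to 0.20. Without the block columns described below, the latter was 0.06 to 0.16. Within an orientation it was 0.31 to 0.42 for these 5706 probes. These are descriptions across probes, which share spots and dyes. The median SD of a probe over the 10 arrays was 0.64 on the log2 scale. Dim probes thus carried little information that repeated with the dyes exchanged.

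The tissue check was made with genes known from medium spiny neurons. Of 31 such genes with a probe, 26 lay above the empty spots, and the level of 22 of them, over both lines, was higher in the NAc than the mean of the 6 other regions. Arpp21, a phosphoprotein regulated by cAMP, was 2.69 higher on the log2 scale, and Bcl11b, a transcription factor of these neurons, 2.14 higher. Pdyn stood 1.63 and Penk 0.93 above the other regions. The median of the list was 0.49, against 0.08 for all probes, while 8 cortical markers had a median of -0.12. Not every marker stood out, since Adora2a (0.06) and Ppp1r1b (0.00) were at the level of the other regions, and no probe for Drd1 or Drd2 was matched by name. Of the 6 genes listed for the neighbouring septum and diagonal band, 4 lay above the empty spots. The level of 3 of these 4 was higher in the NAc than the mean of the other regions, and their median was 0.38. A contribution of that tissue to the punches was not tested.

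**Figure D1:**
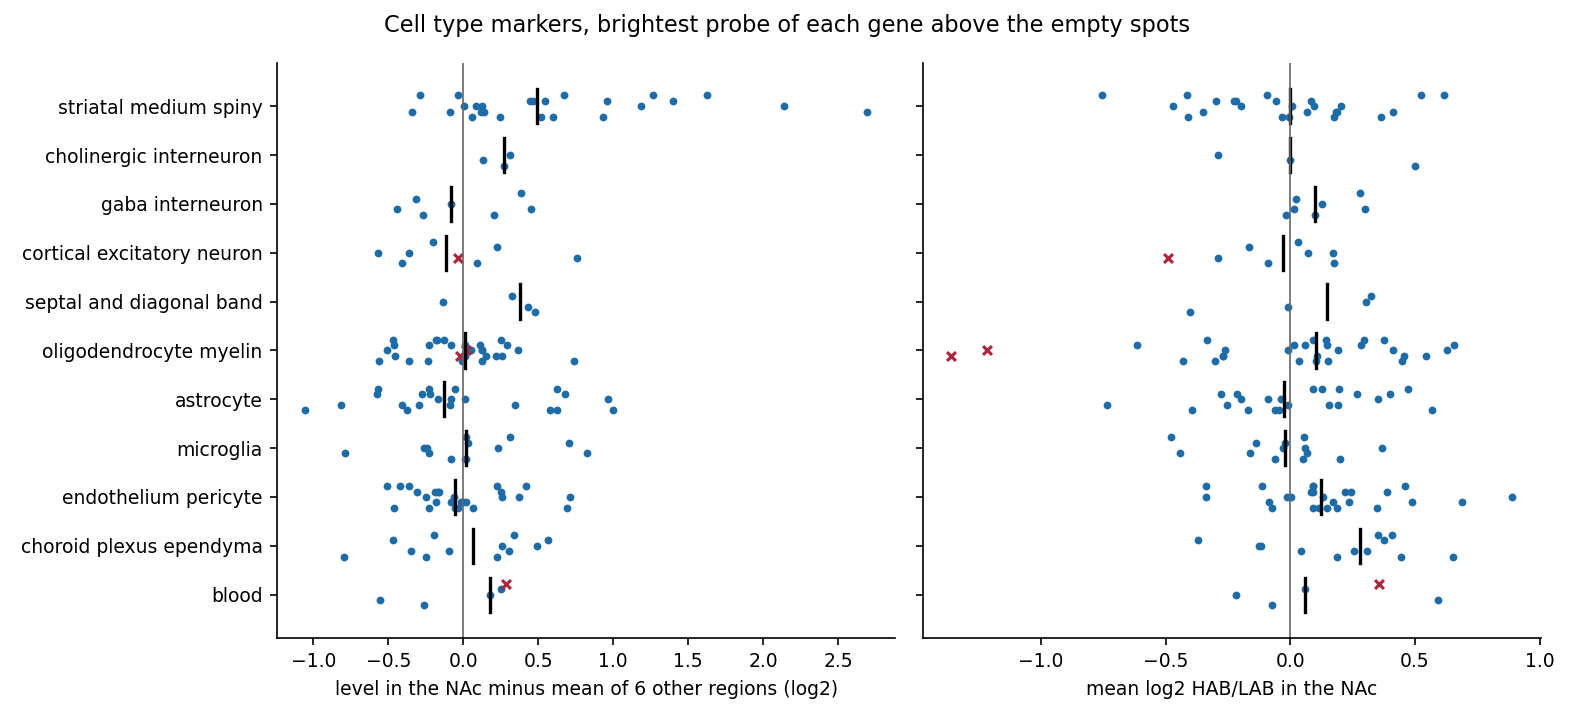
Marker genes of 11 cell types, each dot the brightest probe of 1 gene above the empty spots and each black bar the median over the list's genes above the empty spots, some of which are not drawn. The left panel gives the level in the NAc minus the mean of the 6 other regions (log2) and the right panel the mean log2 HAB/LAB over the 10 NAc arrays, with crosses for probes in the block columns described in the text. Most striatal genes lie to the right of 0 on the left, with Arpp21 at 2.69, and the only markers below -1 on the right are Cnp and Mobp, both in block columns.

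A probe was counted as higher or lower in HAB when its mean was at least 1.3-fold (0.379 on the log2 scale) and all 10 arrays had that direction. Of 22824 probes, 455 (1.99%) were counted, 147 higher (0.644%) and 308 lower (1.35%) in HAB. The median size was 0.54 for the higher and -0.66 for the lower probes. The values nearest to the fold limit were 0.38 and -0.38 inside it, and outside it 38 probes on the higher and 21 on the lower side had the same direction on all arrays but a smaller mean. At least 2-fold, 8 probes were higher and 46 lower. In limma over the 10 arrays, 58 probes were higher (0.254%) and 228 lower (0.999%) at a Benjamini-Hochberg adjusted p under 0.05, and 232 of the 286 were also counted. Leaving out any 1 of the arrays left 26 to 41 higher and 142 to 165 lower probes in limma. The lower side was the larger under both rules, but the split moved with the scaling. With each array centred on its median in place of loess, 377 probes were counted higher and 264 lower, and limma gave 589 and 687. In the authors' own log2 ratios limma gave 262 and 336.

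The lower side was uneven over the array surface. A column of a print-tip block holds 24 spots, and of 983 such columns with at least 8 probes, 16 had a median that stood apart from the others, and all 16 were low, from -0.72 to -0.24. They hold 362 probes, of which 99 (27.3%) were counted lower and 0 higher. Outside these block columns, 356 probes (1.58%) were counted, 209 lower (0.930%) and 147 higher (0.654%). The same 362 probes had a median of -0.38 in the NAc, -0.28 in the cingulate cortex (Cg), -0.13 in the supraoptic nucleus (SON) and 0.08 in the central amygdala (CeA). They were also brighter than the rest of the array in the NAc, by 1.17 (SD 0.29, n = 10) in the HAB channel and by 1.51 (SD 0.18, n = 10) in the LAB channel. They were brighter as well in the Cg (1.41 and 1.70), the medial amygdala (MeA, 1.36 and 1.26), the SON (1.19 and 1.29) and the paraventricular nucleus (PVN, 0.94 and 0.95), but not in the CeA (-0.03 and -0.06) or the basolateral amygdala (BLA, -0.13 and -0.14). In the MeA and PVN, where they were bright, their median log2 HAB/LAB was 0.02 in both. The part of the print layout in the values of these probes was not tested, and each gene from a block column is named as such below.

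**Figure D2:**
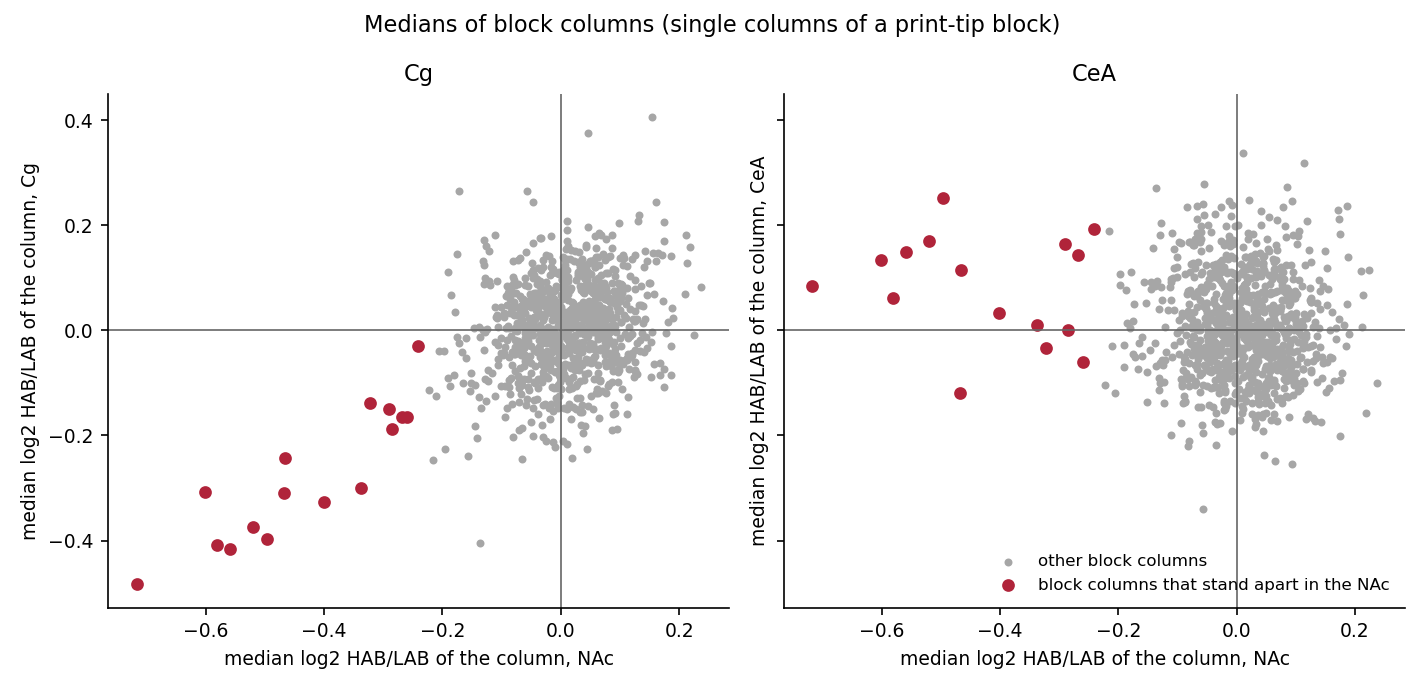
Medians of log2 HAB/LAB for 983 block columns of the array, with the NAc on the x axis and the Cg or the CeA on the y axis. The 16 red points are the columns that stand apart in the NAc, from -0.72 to -0.24, and they lie lower in the Cg than in the CeA.

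Among the probes higher in HAB, the largest differences were those of Rab6a, a small GTPase of transport through the Golgi (RAB6 on the array). Its probe at spot 6292 ran from 2.03 over a median of 2.87 to 3.79 on the 10 arrays, with a mean of 2.84 (SD 0.55, adjusted p = 1.8e-06, limma). A second probe, spot 15500, ran from 1.96 to 3.10 around a median of 2.62, with a mean of 2.58 (SD 0.42). No array of either probe came near 0, but the other probes for the gene gave -0.00 and 0.61, so the probes of Rab6a did not measure alike. Cnbp, a zinc finger protein that binds nucleic acids, ran from 1.45 to 2.70 around 1.79, with a mean of 1.91 (SD 0.40, adjusted p = 1.3e-05, limma), while its other probe gave 0.19. Sumo2, a small modifier attached to proteins, ran from 1.24 to 2.45, with a mean of 1.80 (SD 0.30), and its other probe gave 0.09. Rab6a, Cnbp and Sumo2 were also higher in HAB in the 6 other regions.

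The share of probes counted rose with brightness in the NAc. It was 0.0964% higher and 0.175% lower at percentiles 0 to 50, and 5.48% and 7.78% at percentiles 95 to 99. The shares of gene lists here and below are set against all probes and are not matched for brightness. Of 107 probes for 77 genes of cytosolic ribosomal proteins, 3 were counted higher (2.80%, against 0.644% of all probes). Rps3a1 ran from 0.72 to 2.13 around a median of 1.34, with a mean of 1.34 (SD 0.44, adjusted p = 0.00044, limma). Rps25 had 0.58 (SD 0.32) and Rpl10a 0.54 (SD 0.25), and a second Rpl10a probe gave -0.23. The list's median was 0.07 against 0.01 for all probes, and its only lower probe, Rplp0 with -0.50, lies in a block column. A cDNA probe can also bind transcripts of related genes and pseudogenes, which are many for ribosomal proteins, and the values cannot be split among them.

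Chaperones and proline isomerases, which help proteins fold, gave 5 higher (4.10%, against 0.644% of all probes) and 2 lower probes (1.64%, against 1.35%) of 122. Hspa8, the constitutive heat shock protein of the HSP70 family, was counted with both of its brighter probes, at 0.85 (SD 0.50, from 0.21 to 1.62) and 0.69 (SD 0.34, from 0.33 to 1.38), and its other probes gave 0.37 and 0.02. The first of these depended on the dye, with a mean of 0.43 where HAB was in Cy3 and 1.27 where HAB was in Cy5. Ppid, a cyclophilin, ran from 0.38 to 1.27, with a mean of 0.77 (SD 0.28, adjusted p = 0.0076, limma). Dnajb6, a cochaperone, had 0.47, and Ppia, another cyclophilin, 0.42, and neither passed limma. The lower probes were those of the cochaperone genes Dnajc24 (-1.14) and Dnajc25 (-0.69), the latter in a block column.

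Genes of the cytoskeleton and of RNA handling were also found on the higher side. Stmn1, which destabilizes microtubules, was counted with both of its probes, at 0.52 (SD 0.28) and 0.60 (SD 0.29). Pfn2, the profilin of neurons, had 0.60 (SD 0.27, adjusted p = 0.038, limma), and Kif18b, a kinesin, 1.03 (SD 0.37, from 0.48 to 1.49). Of 156 probes for the cytoskeleton, 4 were higher (2.56%, against 0.644% of all probes) and 3 lower (1.92%, against 1.35%). The lower ones include Map2 (-0.54), which binds microtubules, and the kinesin gene Kif21b (-0.66), which lies in a block column. Of 190 probes for splicing and RNA binding, 3 were higher (1.58%, against 0.644% of all probes) and 0 lower (against 1.35%). These were the splicing factor Srsf1 at 0.60 (SD 0.25, adjusted p = 0.040, limma), Rbm15 at 0.70 (SD 0.60) and the helicase Ddx27 at 0.39 (SD 0.22). Smg6, a nuclease of nonsense-mediated decay that is on no such list, had 0.90 (SD 0.43).

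Ptgds, the synthase of prostaglandin D2 that is abundant in meninges, choroid plexus and oligodendrocytes, ran from 0.48 to 1.22 on the 10 arrays around a median of 0.94. Its mean was 0.94 (SD 0.24, adjusted p = 0.0018, limma), with the same mean of 0.94 in both dye orientations. Of 26 probes for choroid plexus and ependyma, 0 were counted, against 1.99% of all probes. Their median was 0.06 over all 26 and 0.19 over the 17 above the empty spots, where all probes had 0.04. With the brightest probe of each of 12 genes above the empty spots the median was 0.28. In the authors' log2 ratios it was -0.02 over 9 probes. Enpp2, listed both there and for oligodendrocytes, had 1 probe at 0.376 (SD 0.20), above 0 on 10 of 10 arrays and just under the fold limit, and others at -0.04 and 0.08. The part of such tissue in the value of Ptgds was not tested. Anxa5, which binds phospholipids, was higher at spot 18040 (0.97, SD 0.35), but the other probe for it, the brighter one, gave -0.33. Pgm2l1, a synthase of glucose 1,6-bisphosphate, was counted with 2 of 5 probes (0.94, SD 0.43, and 0.92, SD 0.32), and the remaining ones lay between -0.18 and 0.38. Spag9, a scaffold of JNK signalling, was counted with both probes, at 0.80 (SD 0.28) and 0.46 (SD 0.29), as was Hmgn3, a nucleosome binding protein, at 0.86 (SD 0.32) and 0.55 (SD 0.36). Opa1, which fuses mitochondrial inner membranes, gave 0.85, 0.22 and -0.56 on its 3 probes, the first counted higher and the last lower.

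**Figure D3:**
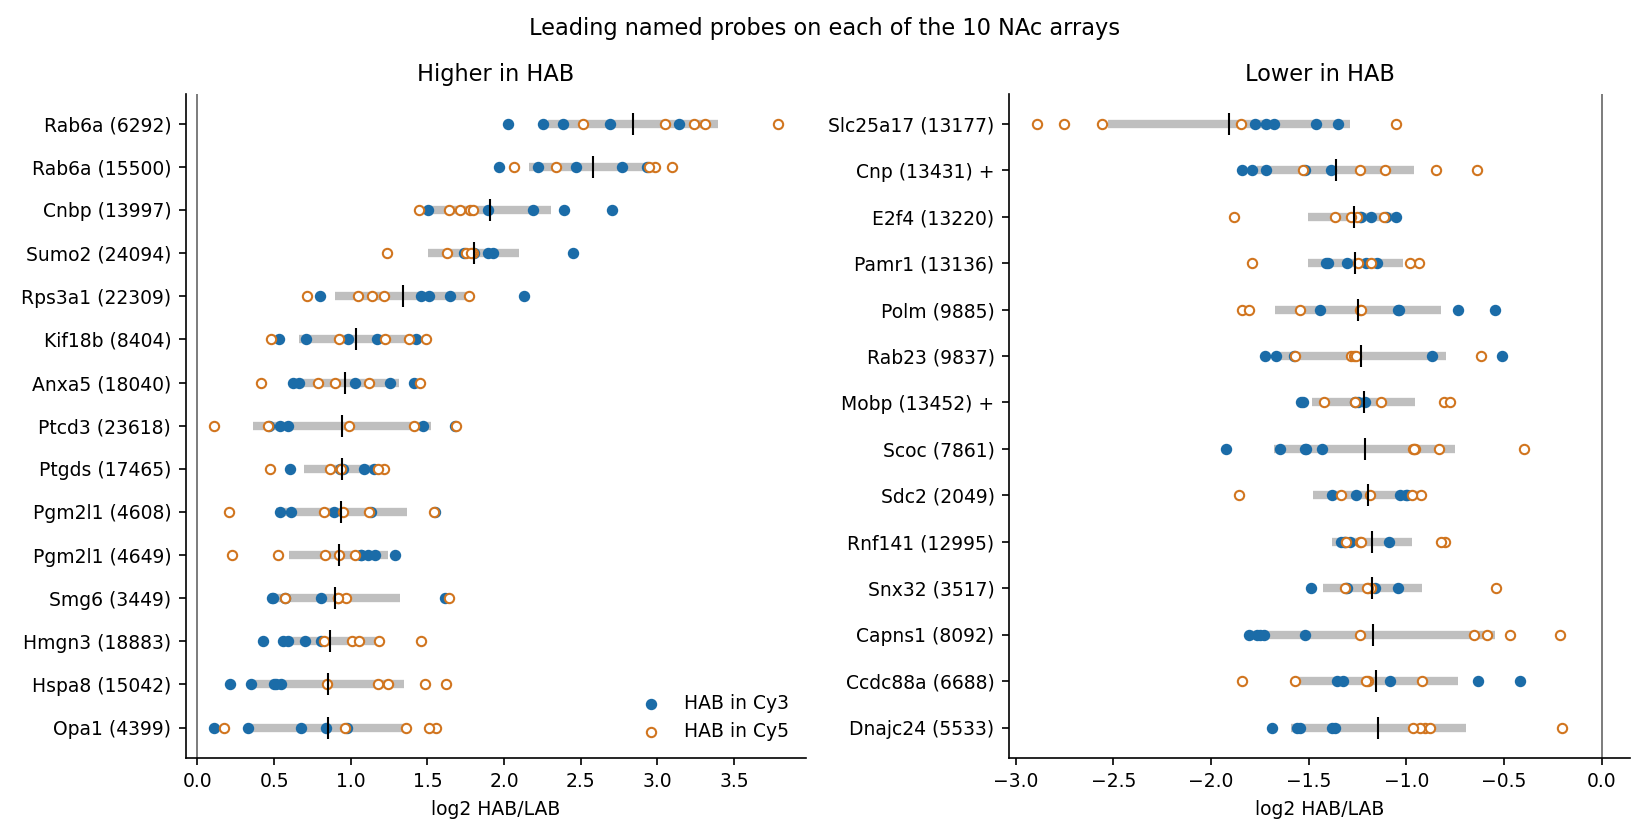
Named probes with the highest and with the lowest mean log2 HAB/LAB among those counted in the NAc, each on the 10 arrays, with the spot number in parentheses. Filled circles are arrays with HAB in Cy3, open circles arrays with HAB in Cy5, ticks the means, grey bars ± SD, and a plus sign marks a block column. Rab6a and Slc25a17 lie farthest from 0, and Capns1 separates by dye orientation, with all arrays of HAB in Cy3 below those of HAB in Cy5.

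On the lower side, one group of genes was lower in HAB in every region. Slc25a17, a carrier of the peroxisomal membrane, ran from -2.89 over -1.75 to -1.05 on the NAc arrays, with a mean of -1.91 (SD 0.62, adjusted p = 0.00019, limma), though its other probe gave 0.04. Mff, a receptor for mitochondrial fission, was counted with 2 of 3 probes, at -0.98 (SD 0.34) and -0.44 (SD 0.17). Zfp672, a zinc finger protein (a RIKEN clone on the array), had -1.02 (SD 0.55) and Mmp15, a matrix metalloproteinase of the cell membrane, -0.92 (SD 0.26). Cfap36, also a RIKEN clone, had -0.95 (SD 0.42), and its other probe gave -0.73 with 1 of 10 arrays above 0. Mt1, a metallothionein that binds zinc and copper, ran from -1.12 to -0.26, with a mean of -0.69 (SD 0.28). The other regions lay between -2.53 and -1.35 for Slc25a17, between -1.43 and -0.71 for Mff at its first probe, between -1.22 and -0.95 for Zfp672, between -0.96 and -0.62 for Cfap36 and between -1.30 and -0.16 for Mt1.

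The candidate genes of the study, which were chosen in part on these arrays and are no independent evidence of direction, have 54 probes for 27 genes here. Of these, 5 probes were higher (9.26%, against 0.644% of all probes) and 8 lower (14.8%, against 1.35%) in the NAc. The higher ones were both Rab6a probes, both Hmgn3 probes and 1 of 3 for Hbb-b1, a beta globin of red blood cells (0.59, SD 0.43). Not counted were Ctsb, a lysosomal protease, whose 4 probes lay between -0.57 and 0.55, and Enpp5, an ectonucleotide pyrophosphatase, at -0.35 (SD 0.46). Another probe, described on the array as similar to Enpp5, was counted lower at -0.45 (SD 0.39).

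A second group on the lower side was defined by being counted lower in the NAc and higher in the CeA. Its direction in these regions thus follows from the selection, and a shared function was not tested. Of the 308 lower probes, 43 (14%) were counted higher in the CeA, and these are 40.6% of the 106 probes counted higher there. Without the block columns the numbers were 31 of 209 (14.8%). The 43 had a median of -1.05 in the NAc, -0.83 in the Cg, -0.40 in the SON, -0.32 in the BLA, 0.02 in the MeA, 0.17 in the PVN and 0.66 in the CeA. All 43 lay at or above percentile 94.8 of the brightness of all probes in the NAc, while 137 of the other 265 lower probes (51.7%) lay above percentile 90. Among the 229 brightest probes on the array, 64 (27.9%) were lower and 10 higher, and their median was -0.24 in the NAc and 0.31 in the CeA. The part of signal brightness in these values was not tested.

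**Figure D4:**
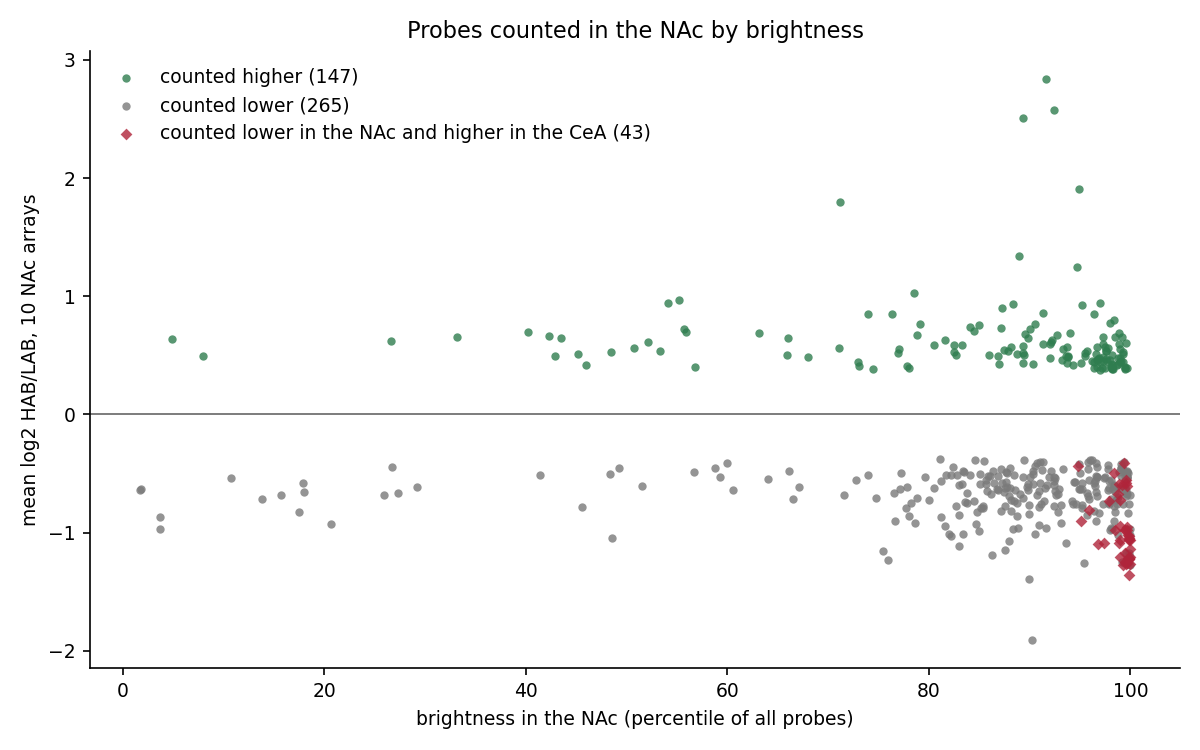
The 455 counted probes by their brightness in the NAc (percentile among all probes) and their mean log2 HAB/LAB, split into 147 higher, 265 lower and 43 lower in the NAc but higher in the CeA. The last lie at percentiles of 94.8 and above.

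The genes of this bright group are varied. E2f4, a transcription factor of the cell cycle (a RIKEN clone), ran from -1.88 to -1.05, with a mean of -1.27 (SD 0.23), and its other probe gave 0.10. Scoc, a coiled coil protein of the Golgi, had -1.21 (SD 0.46), Rnf141, a ring finger protein, -1.18 (SD 0.20), and Tpd52, a coiled coil protein, -1.07 (SD 0.41). The other probes of Rnf141 and Tpd52 gave 0.05 and 0.08. Slc12a3, a cotransporter known from the kidney, had -1.09 (SD 0.25).

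Myelin genes gave the clearest case of probes that disagreed. Of 76 probes for 31 genes of oligodendrocytes and myelin, 1 was higher (1.32%, against 0.644% of all probes) and 4 lower (5.26%, against 1.35%). Of the lower ones, 2 lie in block columns, and outside these columns the share was 2.70% against 0.930%. Cnp, an enzyme of myelin, ran from -1.84 to -0.64, with a mean of -1.36 (SD 0.40, adjusted p = 0.00021, limma), and Mobp, a myelin protein, ran from -1.54 to -0.77, with a mean of -1.22 (SD 0.26). Both belong to the bright group and both lie in the block column with the lowest median. In the authors' own log2 ratios, the same Cnp probe had 0.04. The 5 other probes of Mobp lay between -0.06 and 0.20. Mbp, the basic protein of myelin, had 1 probe at -1.07 (SD 0.26), outside the block columns, and 5 others between 0.04 and 0.45. Gsn, an actin severing protein enriched in oligodendrocytes, had -0.61 (SD 0.25). Qdpr, a pteridine reductase, was counted higher at 0.66 (SD 0.31). The median of the list was 0.10, above the 0.01 of all probes.

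Such disagreement was more frequent on the lower side. Of 145 higher probes above the empty spots, 66 had another probe for the same gene above them, and in 47 of the 66 that probe had the same direction, in 21 by at least 1.3-fold. Of 294 lower probes, 98 had another one, and in 40 of the 98 it had the same direction, in 12 by at least 1.3-fold. Outside the block columns these were 25 and 7 of 59. The difference between the sides was not tested. Probes of 1 gene can cover different parts of its transcripts and are not replicates of each other.

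Further genes were lower in HAB outside the block columns and the bright group. Sdc2, a heparan sulfate proteoglycan, ran from -1.86 to -0.92, with a mean of -1.19 (SD 0.28, adjusted p = 0.00040, limma), and its 3 other probes lay between 0.11 and 0.25. Cplx1, a complexin of transmitter release, had -1.04 (SD 0.68), and its other probe gave 0.14. Ndufv1, a subunit of respiratory complex I, had -0.90 (SD 0.38, adjusted p = 0.0038, limma), with -0.23 on another probe. Of 107 probes for oxidative phosphorylation, 3 were lower (2.80%, against 1.35% of all probes, and 1.94% against 0.930% outside the block columns), with Ndufs3 (-0.76, in a block column) and Cox6c (-0.62), and 1, Sdha, was higher (0.39). Of the lysosomal probes, 2 of 62 were lower (3.23%, against 1.35% of all probes). They were Glb1, a galactosidase, at -0.71 (SD 0.26) and Npc2, a cholesterol transfer protein, at -0.48 (SD 0.43). Usp46, a deubiquitinase, had -0.74 (SD 0.28) and Cul5, a scaffold of ubiquitin ligases, -0.63 (SD 0.24).

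Of 50 probes for 31 genes of medium spiny neurons, which characterize the NAc, 1 was higher and 1 lower (2.00% each, against 0.644% and 1.35% of all probes), and the median was -0.03. The lower one was Rarb, a retinoic acid receptor of the striatum, which ran from -1.09 over -0.71 to -0.59, with a mean of -0.76 (SD 0.15, adjusted p = 0.0047, limma). Its level in the NAc was, however, no higher than in the other regions (-0.03). The higher one was Foxp1, a forkhead factor (a RIKEN clone), which ran from 0.03 to 1.20, with a mean of 0.62 (SD 0.39, adjusted p = 0.068, limma), and its other probes gave 0.12 and 0.28.

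Some striatal genes, chosen after their values were seen, were below 0 on most arrays without being counted. All 4 probes of Arpp21 lay between -0.35 and -0.30, on 10, 9, 9 and 7 of the arrays below 0, with adjusted p-values from 0.20 to 0.51 (limma). One of the probes lies in a block column. Pdyn ran from -1.29 over -0.34 to 0.15, with a mean of -0.42 (SD 0.46, adjusted p = 0.22, limma), below 0 on 9 arrays. Penk had -0.41 (SD 0.34, adjusted p = 0.14, limma), below 0 on 9 arrays and at 0 on 1, and -0.11 on its other probe. Tac1 (-0.06, SD 0.29), Bcl11b (0.10, SD 0.23) and Cartpt, the precursor of the peptide CART (-0.01, SD 0.44), lay on both sides of 0. None of these passed limma, which does not show that the pools were alike. Adora2a (0.36, SD 0.60) and Ppp1r1b (0.20, SD 1.00) had means above 0, with 6 and 5 of the arrays above it. Over the 26 striatal genes above the empty spots, the median was -0.00042. Over all 50 probes of the list it was -0.03, with an SD of 0.12 between arrays. In the authors' log2 ratios it was -0.12 over 23 probes. A direction of the list as a whole was not tested.

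Of 129 probes for 60 genes of dopamine and cAMP signalling, 0 were higher and 1 lower (0.775%, against 1.35% of all probes). It was Prkar1a, a regulatory subunit of protein kinase A, with -0.53 (SD 0.28) on that probe and -0.04, 0.03 and 0.41 on the others. Of 44 probes for opioids and other neuropeptides and their receptors, 2 were higher (4.55%, against 0.644% of all probes) and 1 lower (2.27%, against 1.35%). The higher ones were receptors of the VIP and PACAP family. Vipr1 ran from 0.10 to 1.14 around 0.79, with a mean of 0.77 (SD 0.35, adjusted p = 0.011, limma), and Adcyap1r1 (a RIKEN clone) ran from 0.03 to 1.37 around 0.64, with a mean of 0.72 (SD 0.46, adjusted p = 0.033, limma). Scg2, a precursor of secretory granule peptides, was lower (-0.65, SD 0.35), and its other probe, near the empty spots, gave 0.28. Syt11, a synaptotagmin, was counted with 2 of 4 probes (0.71, SD 0.47, and 0.56, SD 0.32). Of the GABA and glutamate synapse lists, 1 of 35 (2.86%) and 1 of 66 probes (1.52%) were higher, against 0.644% of all probes, and 0 lower. They were the GABA transporter Slc6a11 (0.47, SD 0.21) and the kinase subunit Camk2d (0.43, SD 0.26). Of 37 probes for immediate early genes, Egr1 was the only one counted, as higher (2.70%, against 0.644% of all probes). Its mean was 0.46 (SD 0.21), and its other probe gave 0.12.

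Markers of other cell types moved in both directions. Gja1, the main connexin of astrocytes, gave 0.57 (SD 0.25, from 0.06 to 0.93), 0.63 and 0.43 on its 3 probes, of which the first was counted, and the first and second passed limma (adjusted p = 0.042 and 0.024). Sparcl1, a matrix protein of astrocytes, was lower on both of its probes (-0.73, SD 0.21, and -0.79, SD 0.63, the latter in a block column). Of 54 astrocyte probes, 2 were higher and 2 lower (3.70% each, against 0.644% and 1.35% of all probes), and the median was 0.01. Sparc, a matrix protein listed for endothelium and pericytes, was higher on 1 probe (0.69, SD 0.36) and lay between -0.33 and 0.58 on the others. Of 20 probes for microglia, 0 were counted, against 1.99% of all probes. All 3 probes of Hbb-b1 were above 0, from 0.51 to 0.66, and they were above 0 in most other regions as well.

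Of the 147 higher probes, 98 were counted in no other region in that direction, and of the 308 lower ones 213 (148 of 209 outside the block columns). The remaining 49 (33.3%) and 95 (30.8%) were counted in at least 1 other region, against 1.67% and 1.83% of the probes not so counted in the NAc. Signs were shared most with the Cg, where 118 of the 147 (80.3%) and 284 of the 308 (92.2%) had the same sign. Outside the block columns 187 of the 209 lower probes (89.5%) did. Of all 22824 probes, 11237 were below 0 in the Cg. In the CeA, 38 of the higher (25.9%) and 86 of the lower probes (27.9%) had the same sign as in the NAc. Of the higher probes, 31 were counted higher in the Cg, which is 21.1% of those of the NAc and 17.8% of the 174 of the Cg. Each region had its own pools, but the paper names 6 mice per line for these arrays as a whole. The regions are thus not independent samples of the lines.

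The NAc was set against the mean of the 6 other regions in a limma fit over the 70 arrays. In this contrast, 154 probes were above the others (0.675%) and 215 below (0.942%), and outside the block columns 154 (0.686%) and 165 (0.735%). The fit takes the 10 technical arrays of a region as replicates, and with 1 value per region as the sample limma passed 0 in either direction (542 above and 847 below at an unadjusted p under 0.05). Of the 154 above the others, 58 were counted higher in the NAc, and of the 215 below them 154 were counted lower. On the upper side, Ptgds had a difference of 0.96 (SE 0.14, adjusted p = 2.1e-06, limma), and its other regions lay between -0.50 and 0.35. Rps3a1 also had 0.96 (SE 0.17), although it was above 0 in all regions. Spag9 had 0.87 (SE 0.14), Hspa8 0.73 (SE 0.12), Gja1 0.68 (SE 0.12) and Spg20, which acts in endosomal traffic, 0.65 (SE 0.11). Rab6a at spot 6292 had 0.89 (SE 0.18, adjusted p = 0.0012, limma), but the second counted probe, with 0.56, did not pass (adjusted p = 0.094, limma).

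Below the other regions, the named probes with the smallest p-values included Cnp (-1.27, SE 0.13), E2f4 (-1.16, SE 0.12), Capns1, the small subunit of calpain (-1.12, SE 0.13), Pamr1 (-1.12, SE 0.12), Mobp (-1.09, SE 0.12) and Scoc (-1.08, SE 0.12). Cnp and Mobp lie in a block column, and each of these 6 was above 0.6 in the CeA and below -0.8 in the Cg. Rarb had -0.66 (SE 0.12, adjusted p = 0.00012, limma), with other regions between -0.52 and 0.32. Usp46 had -0.96 (SE 0.17, adjusted p = 0.00023, limma), with other regions between -0.17 and 0.50. Slc25a17 (-0.06), Zfp672 (0.06), Mff (0.15) and Cnbp (-0.05) did not pass, which does not show that the regions were alike.

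**Figure D5:**
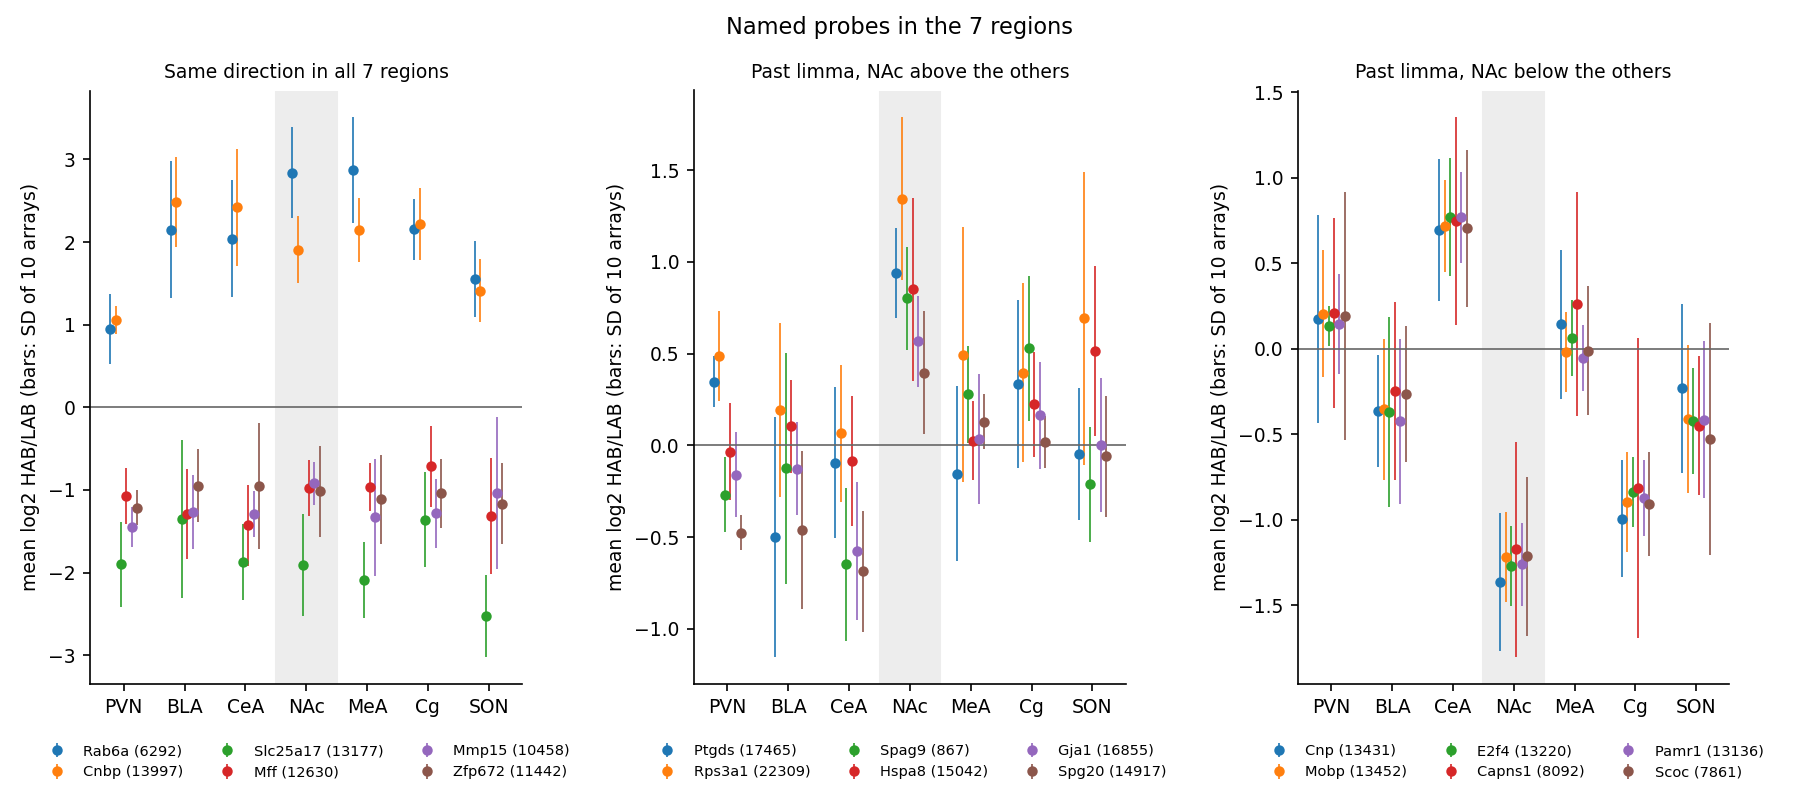
Mean log2 HAB/LAB of 18 named probes in the 7 regions, with bars of ± SD over 10 arrays and the NAc shaded. The left panel holds probes with the same direction in all regions, the middle panel probes above the other regions in the NAc, such as Ptgds at 0.94, and the right panel probes below them, which lie above 0 in the CeA and below 0 in the Cg.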

How the data were processed

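Both dye channels of the 10 NAc arrays and of 60 arrays of 6 other regions were used. The deposited scanner tables hold spot and background intensity per channel, quantified by the authors with a fixed circle. Intensities were background corrected (normexp, offset 50), log2 HAB/LAB was smoothed by loess (span 40%) and each print-tip block was set to a median of 0, with limma 3.58.1 in R 4.3.3. The authors' log2 ratios, deposited for 10052 probes of each NAc array after their global and LOESS normalization, served as an alternative. The limma fits had the mean of both dye orientations as the effect (NAc arrays), or the NAc minus the mean of the 6 other regions (70 arrays). Named genes were the 15 leading counted probes per direction with a gene name, the study's candidates, up to 4 counted probes per list and the 10 leading ones per direction against other regions, all with their other probes. Arpp21, Pdyn, Penk, Tac1, Bcl11b, Cartpt, Adora2a, Ppp1r1b, Srr, Ap1s2, Rnf11, Enpp2 and the probe similar to Enpp5 fall outside this rule and were chosen after their values were seen. The members and lists were chosen with earlier results of these data known. All NAc arrays were quantified on 1 day. Fits were tested on simulated data with each probe's own spread and with arrays drawn independently. The simulation held no dye effect and no block columns, so it does not cover these. Results for some genes are not reported here. Names were matched to RefSeq symbols where possible.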

Additional observations from a re-analysis of the deposited data

Results flagged for a closer look

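On the leading probes and the array medians, 68 groups of 5 arrays with the same dye orientation were examined for an array far from the others, and 7 were found, where chance gives about 1 in 20. With HAB in Cy3, 1 array stood at 2.45 for Sumo2 (the others at 1.74 to 1.93), at 1.62 for Smg6 (0.49 to 0.81), at -1.52 for Capns1 (-1.81 to -1.73) and at -1.09 for Rnf141 (-1.33 to -1.29). With HAB in Cy5, 1 array stood at -0.54 for Snx32 (-1.31 to -1.18), at -0.20 for Dnajc24 (-0.97 to -0.88) and at -0.39 for Scoc (-0.96 to -0.83). In each of the 7 the array kept the direction of the others. This follows from the selection, since a probe was counted only when all arrays had the same direction.

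The difference between HAB and LAB in the NAc departed from the mean of the 6 other regions for these named probes, as tested by limma in 1 fit over the 70 arrays, with technical arrays as replicates. With 1 value per region as the sample, limma passed 0 probes (542 above and 847 below at an unadjusted p under 0.05). Below the other regions were Cnp (-1.27, in a block column), E2f4 (-1.16), Capns1 (-1.12), Pamr1 (-1.12) and Mobp (-1.09, in a block column). So were Scoc (-1.08), Rnf141 (-1.01) and Bloc1s2 (-0.999, in a block column). A probe described on the array as polymyositis/scleroderma autoantigen 1 (-0.96, in a block column) also lay below them. The other regions were not alike, since Cnp, E2f4 and Rnf141 had 0.70, 0.77 and 0.79 in the CeA but -0.99, -0.84 and -1.04 in the Cg. Above the other regions were Ptgds (0.96), Rps3a1 (0.96), Spag9 (0.87), Stmn2 (0.86) and ring finger protein 44 (0.83). Hspa8 (0.73), Pcnp (0.68), Gja1 (0.68), Spg20 (0.65) and a Nedd4-like gene (0.63) also lay above these regions. The autoantigen probe, Stmn2, ring finger protein 44, Pcnp and the Nedd4-like gene were not counted in the NAc itself, since 1 or more of the 10 arrays had the other sign.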

How the results depend on the processing

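The main counts were 147 higher and 308 lower, 58 and 228 in limma, and 154 above and 215 below the other regions. With median centring alone they were 377 and 264, 589 and 687, and 619 and 555. With HAB in Cy3 alone they were 1330 and 1203, 6 and 22, and 11 and 88, and with HAB in Cy5 alone 976 and 1279, 4 and 0 (limma, 1339 lower at an unadjusted p under 0.05), and 32 and 37. In the authors' log2 ratios limma gave 262 and 336, and 284 probes above the other regions. An offset of 0 gave 33 higher in limma, and loess without the block medians gave 84 above. Leaving out 1 array gave 168 to 212 and 337 to 357 counted probes, 26 to 41 and 142 to 165 in limma, and 105 to 131 and 168 to 194 in the contrast. Same-numbered arrays of both orientations correlated by -0.01 to 0.01 and share only a number, and a fit with the replicate block gave 13 and 71 in limma and 87 and 174 in the contrast. As alternatives added after seeing the data, subtracting the median of each block column gave 172 lower probes and 110 in limma, and leaving the block columns out gave 209 lower and 38 and 121 in limma. With 1 value per region as the sample, limma passed 0 probes above and 0 below (542 and 847 at an unadjusted p under 0.05). Where only fewer arrays or probes entered, their number differs by construction, and otherwise the cause was not tested.

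Of 85 counted probes that the naming rule selected, 41 kept the count under every setting run. Only Cnp turned, to 0.040 in the authors' log2 ratios. Of 112 list medians, 108 moved by less than the spread between arrays. The septal median went to 0.30 over probes above the empty spots, the microglia median to -0.087 in the authors' ratios, that of dopamine and cAMP signalling to 0.061 with the brightest probe of each gene, and that of solute carriers to 0.018 above the empty spots. A block by scan day could not be fitted within the NAc, where all arrays share 1 day.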

Other observations

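Among transport genes, 2 of 259 probes for solute carriers were higher (0.772%, against 0.644% of all probes) and 4 lower (1.54%, against 1.35%). Slc7a5, the carrier of large neutral amino acids, had 0.55 (SD 0.35), and Slc7a1, a carrier of cationic amino acids in a block column, -0.46 (SD 0.25). Slc25a4, the adenine nucleotide carrier of mitochondria, also in a block column, had -0.80 (SD 0.41). Of 75 probes for ion channels, 0 were higher and 2 lower (2.67%, and 1.35% against 0.930% outside the block columns). They were the potassium channel gene Kcnq5 (-0.44, SD 0.19) and the chloride channel gene Clcn2 (-0.56, SD 0.31, in a block column). In the ubiquitin system, 1 of 227 probes was higher (0.441%), the conjugating enzyme Ube2d3 (0.49, SD 0.35). Lower were 3 probes (1.32%), Usp39 (-0.69, SD 0.35) in a block column beside Usp46 and Cul5. These shares and those of the solute carriers are near the shares of all probes. Srr, the serine racemase that makes D-serine, was counted lower with 2 of 4 probes (-0.87 and -0.77), both in block columns. Ap1s2, an adaptor of clathrin coats, and Rnf11, a ring finger protein, each had 1 probe counted higher (0.47 and 0.44) and 1 counted lower (-0.41 and -0.66).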
